A study of Mus musculus with 2 samples.

Results

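The 35 genes described here encode the machinery of G2 and mitosis, from the cyclins that start cell division to the proteins that separate the daughter cells. They were chosen as a named list and matched by gene ID, and all 35 were measured among 24532 gene IDs. RNA came from sorted CD69+ DP thymocytes of C57BL/6 mice aged 6 weeks. DP (double-positive) cells are immature T cells with both CD4 and CD8 on their surface, and CD69 is a marker of activation. The conditional knockout library, labelled KO, came from mice of genotype NSRP1f/fCD4Cre, in which Cre is driven by Cd4 regulatory sequence and acts from the DP stage on. The library labelled wild-type came from NSRP1f/f mice, so both carried floxed alleles of Nsrp1, the gene of the nuclear speckle splicing protein NSrp70. The labels state neither the number of mice behind each library nor their sex. There was 1 library per genotype, so no difference below has a replicate check and none was tested. Intervals are at 95%, from the exact Poisson distribution for levels and the exact binomial one for ratios, and cover counting error only.

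In a dividing cell, Cdk1 bound to cyclin A or B drives entry into mitosis, Aurora and Polo kinases build the spindle, and kinetochore proteins fasten chromosomes to its microtubules. A checkpoint holds the anaphase-promoting complex inactive until all chromosomes are attached, after which cyclins are destroyed and the central spindle directs cytokinesis. Transcripts of these genes accumulate from late S phase to mitosis, under the MuvB complex with B-MYB and FOXM1, which reads a short promoter element called the cell cycle genes homology region (CHR), often beside CCAAT boxes bound by NF-Y. In the thymus, proliferation accompanies the step from the double-negative to the DP stage, and most later DP cells are not dividing.

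The transcription start regions of 4 members are shown because they include the gene with the largest fold (Birc5), 2 cyclin-kinase genes (Ccnb2 and Cdk1) and the lowest of the members higher in the library labelled KO (Kif23). Each runs 5' to 3' on the gene's strand from 250 bases before to 50 bases after the annotated start, in RefSeq sequence of GRCm38.p6. Capitals mark CHR elements (TTTGAA or TTCGAA) and CCAAT boxes (CCAAT), and a match on the opposite strand reads TTCAAA or ATTGG for the forms found here. Ccnb2 lies at chr9:70421505-70421804 (minus strand), Cdk1 at chr10:69352863-69353162 (minus), Kif23 at chr9:61946750-61947049 (minus) and Birc5 at chr11:117848987-117849286 (plus).
Ccnb2: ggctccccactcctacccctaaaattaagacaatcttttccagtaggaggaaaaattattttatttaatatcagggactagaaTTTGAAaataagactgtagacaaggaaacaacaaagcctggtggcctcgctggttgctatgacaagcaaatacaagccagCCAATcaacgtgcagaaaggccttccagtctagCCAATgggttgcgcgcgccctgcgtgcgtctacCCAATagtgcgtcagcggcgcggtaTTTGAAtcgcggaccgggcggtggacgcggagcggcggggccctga
Cdk1: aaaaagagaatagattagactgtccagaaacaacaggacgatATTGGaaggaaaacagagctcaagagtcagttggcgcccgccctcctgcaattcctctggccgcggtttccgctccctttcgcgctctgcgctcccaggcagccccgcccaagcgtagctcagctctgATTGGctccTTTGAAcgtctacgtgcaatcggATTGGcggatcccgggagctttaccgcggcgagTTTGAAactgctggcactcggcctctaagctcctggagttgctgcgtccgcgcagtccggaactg
Kif23: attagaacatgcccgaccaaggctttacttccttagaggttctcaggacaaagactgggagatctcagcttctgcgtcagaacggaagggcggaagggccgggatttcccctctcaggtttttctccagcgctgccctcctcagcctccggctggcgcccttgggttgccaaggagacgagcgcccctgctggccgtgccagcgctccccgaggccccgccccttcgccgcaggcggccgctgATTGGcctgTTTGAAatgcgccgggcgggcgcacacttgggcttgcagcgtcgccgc
Birc5: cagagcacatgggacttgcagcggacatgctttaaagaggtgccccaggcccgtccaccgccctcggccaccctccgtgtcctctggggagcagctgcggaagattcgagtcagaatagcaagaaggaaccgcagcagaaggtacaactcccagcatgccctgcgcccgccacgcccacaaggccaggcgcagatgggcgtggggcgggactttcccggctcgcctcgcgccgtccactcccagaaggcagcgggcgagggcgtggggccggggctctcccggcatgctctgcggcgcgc
In Ccnb2 the window holds 3 CCAAT boxes, with first bases at -87, -54 and -21 from the start, and a CHR at 5, while a further CHR lies at -167. Cdk1 has 3 CCAAT boxes at -208, -80 and -48 and CHR elements at -71 and -15. Kif23 has 1 of each, at -7 and 3. Birc5 has neither in this window.

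Nsrp1 itself was level between the libraries, so its RNA gave no sign of the deletion named on the label. The library labelled KO had 29.6 TPM (27.9 to 31.5) of Nsrp1 and the library labelled wild-type 29.7 TPM (27.7 to 31.9), where TPM is a level scaled to transcript length and to the library's total. The depth ratio of its 7 exons, the library labelled KO over the other, ran between 0.827 and 1.08. Annotated exons were covered by 5076 megabases of reads in the library labelled KO and by 4199 megabases in the library labelled wild-type. The libraries also differed in genes outside the cell cycle: Xist, transcribed in female cells, stood at 76.3 TPM in the library labelled KO and 202 TPM in the other library. The Y-linked Ddx3y stood at 71.2 TPM in the library labelled KO and 31.1 TPM in the other, and the heat shock gene Hspa1a at 0.525 TPM in the library labelled KO and 467 TPM in the other. Xist and Ddx3y were both present in each library, so each appears to hold RNA of female and male cells, in different proportions. Sex composition and genotype therefore cannot be told apart, and the part of cell handling in any difference was not tested.

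Of the 35 members, 34 were higher in the library labelled KO, most by less than a doubling, and Smc4 was lower. The median log2 fold change of (TPM + 1) was 0.78, against -0.07 over the 12029 genes that reached 1 TPM in either library. A size rule of 1 log2 unit was passed upwards by 4 members (Birc5, Tpx2, Ccnb2 and Aurkb) and downwards by none, where 0.657% of all 12029 genes passed upwards and 1.37% downwards. At 0.5 log2 units, 32 members passed upwards and none downwards, against 3.37% and 6.42% of all genes. A fold above 0 was found in 34 members and in 38.5% of all genes. The interval of the ratio lay above 1 in 34 members and below 1 in Smc4. In the ranking of folds over all genes, 32 members were in the top 5%, the others being Kif23, Bub3 and Smc4. In bulk RNA, more cells in a state that holds these transcripts and more of them per cell cannot be told apart.

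**Figure D1:**
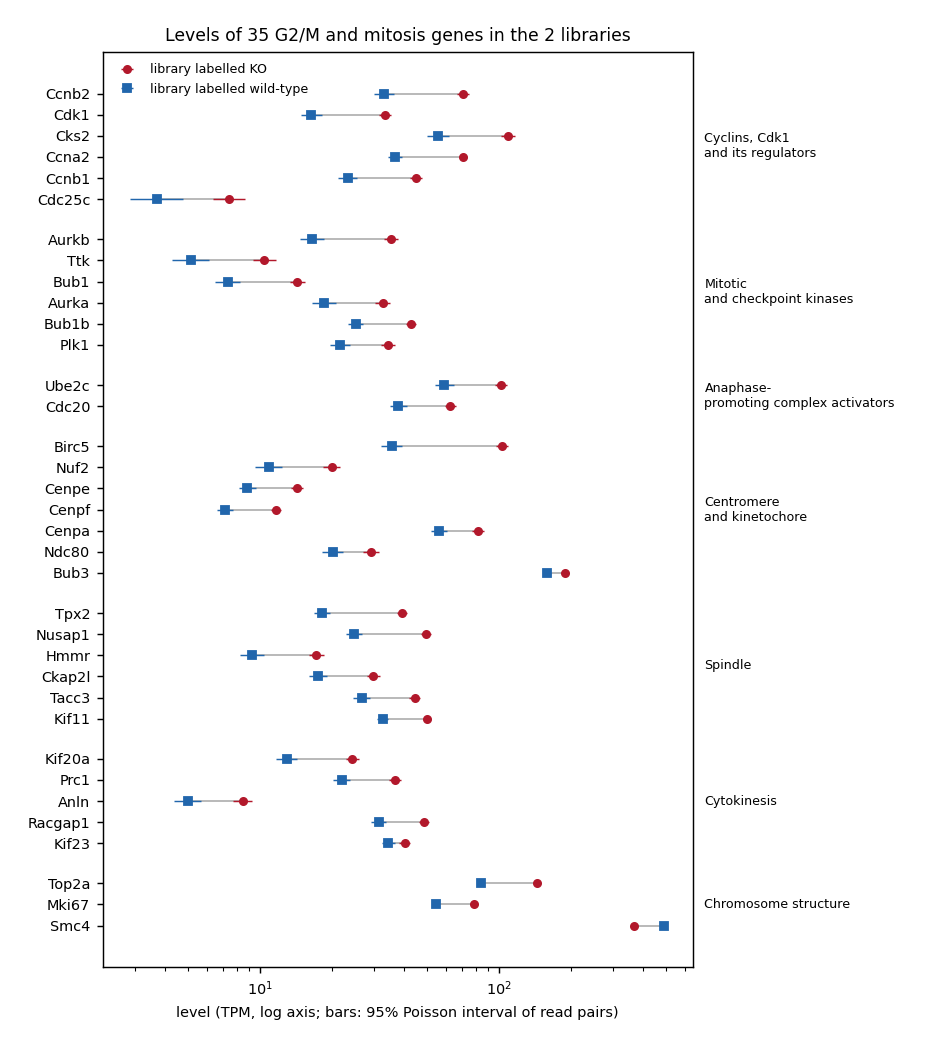
Level of each of the 35 members in TPM on a log axis, with the library labelled KO as red circles and the library labelled wild-type as blue squares; bars are 95% Poisson intervals of the estimated read pairs. The red point lies right of the blue one in every row except Smc4, with levels between 7.46 TPM (Cdc25c) and 369 TPM (Smc4) in the library labelled KO and between 3.72 TPM (Cdc25c) and 492 TPM (Smc4) in the other.

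The members ranged from scarce to abundant transcripts, with Cdc25c lowest and Smc4 highest in both libraries. The median member stood at 40.3 TPM in the library labelled KO and 23.4 TPM in the library labelled wild-type, while the median of all 12029 genes was 28.2 TPM in the library labelled KO and 30.3 TPM in the other. Summed over the 35 genes the level was 2102 TPM in the library labelled KO and 1523 TPM in the library labelled wild-type, a ratio of 1.38. Smc4 alone made up a large part of both sums, and without it they were 1733 TPM in the library labelled KO and 1032 TPM in the other, a ratio of 1.68. Each member rested on 162 to 16768 pairs of reads, as estimated from coverage, in the library labelled KO and 62.5 to 17363 in the library labelled wild-type.

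The cyclins, Cdk1 and its regulators had the highest median fold of the 7 role groups, 0.95 on the log2 scale over 6 genes, and the narrowest range among the groups of 5 or more, 0.84 to 1.07. Ccnb2, which encodes cyclin B2, stood at 70.6 TPM in the library labelled KO (66.7 to 74.7) and 33.1 TPM in the library labelled wild-type (30.1 to 36.3), a ratio of 2.14 (1.91 to 2.39). Cdk1, the kinase that these cyclins activate, stood at 33.4 TPM in the library labelled KO (31.5 to 35.5) and 16.4 TPM (14.9 to 18.1) in the other, a ratio of 2.03 (1.82 to 2.29). The kinase and this cyclin partner thus differed between the libraries by ratios whose intervals overlap. Ccnb1, the gene of cyclin B1, had 45.1 TPM in the library labelled KO and 23.4 TPM in the other, and Ccna2, the gene of cyclin A2, had 70.7 TPM in the library labelled KO and 36.7 TPM in the other, each with a ratio of 1.93. Ccnb1 shares 42.1% of its 50-base words with other genes, chiefly its pseudogene, and 13.4% of the exonic bases of Ccna2 overlap Exosc9 on the opposite strand, so both values are uncertain. Cks2, a small Cdk-binding protein gene, had 109.6 TPM in the library labelled KO and 55.7 TPM in the library labelled wild-type (ratio 1.97), with 29.7% of its words shared with another gene. Cdc25c, the phosphatase that removes inhibitory phosphates from Cdk1, was the least abundant member, at 7.46 TPM in the library labelled KO (6.36 to 8.71) and 3.72 TPM (2.86 to 4.77) in the other. Its ratio of 2.01 has a wide interval, 1.48 to 2.71.

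The mitotic and checkpoint kinases came next, their 6 genes having a median of 0.83 on the log2 scale, and summed levels of 170 TPM in the library labelled KO and 94.6 TPM in the library labelled wild-type. Aurkb, the kinase of the chromosomal passenger complex, led with 35.4 TPM in the library labelled KO (32.9 to 37.9) and 16.6 TPM in the library labelled wild-type (14.7 to 18.6), a ratio of 2.13 (1.86 to 2.45). Ttk, the kinase Mps1 that starts the spindle checkpoint, had the lowest level of the group, 10.4 TPM in the library labelled KO and 5.14 TPM in the other, with a ratio of 2.03 (1.65 to 2.51). Bub1, a checkpoint kinase at the kinetochore, had 14.4 TPM in the library labelled KO and 7.35 TPM in the other (ratio 1.95). Aurka, the Aurora kinase of the spindle poles, had 32.6 TPM in the library labelled KO and 18.6 TPM in the other (ratio 1.76), and Bub1b, which encodes the checkpoint protein BubR1, had 42.8 TPM in the library labelled KO and 25.2 TPM in the other (log2 fold change 0.74). Plk1, the Polo-like kinase, had the smallest ratio of the group, 1.59 (1.41 to 1.79), with 34.5 TPM in the library labelled KO and 21.7 TPM in the library labelled wild-type. The intervals of Plk1 and Aurkb do not overlap.

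Cdc20 and Ube2c, which work with the anaphase-promoting complex, were both higher in the library labelled KO. Ube2c, the E2 enzyme that starts ubiquitin chains on cyclin B, stood at 102 TPM in the library labelled KO (96.2 to 108.6) and 59.1 TPM (53.9 to 64.6) in the other, a ratio of 1.73. Cdc20, the co-activator that the spindle checkpoint restrains, stood at 62.6 TPM in the library labelled KO and 37.9 TPM in the other, a ratio of 1.65.

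The centromere and kinetochore group was the most uneven of the groups in which all genes were higher, with log2 fold changes of 0.25 to 1.51 and a median of 0.63 over 7 genes. Birc5, which encodes survivin, the subunit that brings the chromosomal passenger complex to centromeres, had the largest fold of all members. It stood at 103 TPM in the library labelled KO (97.6 to 109.1) and 35.7 TPM in the library labelled wild-type (32.2 to 39.5), a ratio of 2.89 (2.57 to 3.24). The interval of Birc5 lies above those of all other members except Cdc25c. Its partner Aurkb, described above, had a ratio of 2.13. Nuf2 and Ndc80 encode 2 subunits of the same microtubule-binding complex. Nuf2 had 19.9 TPM in the library labelled KO and 10.9 TPM in the other, a ratio of 1.83 (1.57 to 2.16), and Ndc80 had 29.2 TPM in the library labelled KO and 20.2 TPM in the other, a ratio of 1.44 (1.27 to 1.64). Cenpe, a kinetochore kinesin, had 14.3 TPM in the library labelled KO and 8.86 TPM in the other, and Cenpf, a large kinetochore protein gene, had 11.7 TPM in the library labelled KO and 7.17 TPM in the other, with ratios of 1.62 and 1.63. Cenpa, the histone H3 variant of centromeres, had 81.8 TPM in the library labelled KO and 56.0 TPM in the other, a ratio of 1.46. Bub3, a checkpoint protein that binds Bub1 and BubR1, was the second most abundant member and stood apart at 188 TPM in the library labelled KO and 158 TPM in the other, a ratio of 1.19 (1.13 to 1.25).

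For the 6 spindle genes the median was 0.78 on the log2 scale, and they summed to 230 TPM in the library labelled KO and 129 TPM in the library labelled wild-type. Tpx2, which activates Aurora A on the spindle, had 39.3 TPM in the library labelled KO (37.5 to 41.1) and 18.2 TPM (16.8 to 19.6) in the other, a ratio of 2.16 (1.98 to 2.37), while the kinase gene it serves, Aurka, had 1.76 (1.53 to 2.01). Nusap1, a microtubule-bundling protein gene, had 49.5 TPM in the library labelled KO and 24.8 TPM in the other, a log2 fold change of 0.97 with a ratio interval of 1.82 to 2.20. Hmmr, a spindle pole protein gene, had 17.2 TPM in the library labelled KO and 9.28 TPM in the library labelled wild-type (ratio 1.86), and Ckap2l, a spindle microtubule protein gene, had 29.8 TPM in the library labelled KO and 17.5 TPM in the other (log2 fold change 0.74). Tacc3, which stabilises spindle fibres, had 44.3 TPM in the library labelled KO and 26.7 TPM in the other (ratio 1.66). Kif11, the kinesin that pushes the spindle poles apart, had the smallest ratio of the group, 1.53 (1.43 to 1.63), with 49.9 TPM in the library labelled KO and 32.7 TPM in the other.

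Among the 5 cytokinesis genes, 4 were higher by 0.5 log2 units or more and Kif23 was not, and the group median was 0.66. Kif20a, a central spindle kinesin, had 24.4 TPM in the library labelled KO and 13.0 TPM in the library labelled wild-type, a ratio of 1.88 (1.67 to 2.12). Its value is uncertain, since 28.6% of its exonic bases overlap Cdc23 on the opposite strand, and Cdc23 stood at 50.5 TPM in the library labelled KO and 53.5 TPM in the other. Prc1, which bundles the central spindle microtubules, had 36.8 TPM in the library labelled KO and 22.0 TPM in the other (ratio 1.67), and Anln, the scaffold protein of the contractile ring, had 8.47 TPM in the library labelled KO and 4.997 TPM in the other (ratio 1.69). Kif23 and Racgap1 encode the 2 partners of the centralspindlin complex and differed in ratio. Racgap1 had 48.5 TPM in the library labelled KO and 31.4 TPM in the library labelled wild-type, a ratio of 1.55 (1.42 to 1.68), and Kif23 had 40.3 TPM in the library labelled KO (38.3 to 42.4) and 34.4 TPM in the other (32.3 to 36.6), a ratio of 1.17 (1.08 to 1.27). Of 50-base words, 31.2% of those of Kif20a and 26.3% of those of Prc1 also occur in other genes.

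The 3 genes of chromosome structure went different ways. Top2a, which untangles sister DNA, had 145 TPM in the library labelled KO (142 to 148) and 84.2 TPM (81.6 to 86.9) in the other, a ratio of 1.72 (1.66 to 1.79). Mki67, which encodes the chromosome coat protein Ki-67, had 79.0 TPM in the library labelled KO (77.3 to 80.6) and 54.6 TPM in the library labelled wild-type (53.1 to 56.2), a ratio of 1.45 with a lower bound of 1.40. Smc4, an ATPase of condensin, was the most abundant member in both libraries and the only one lower in the library labelled KO, with 369 TPM there (363 to 374) and 492 TPM in the library labelled wild-type (484 to 499), a ratio of 0.75 (0.73 to 0.77). Its level was above those of 96.8% of all tested genes in the library labelled KO and 97.8% in the other.

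**Figure D2:**
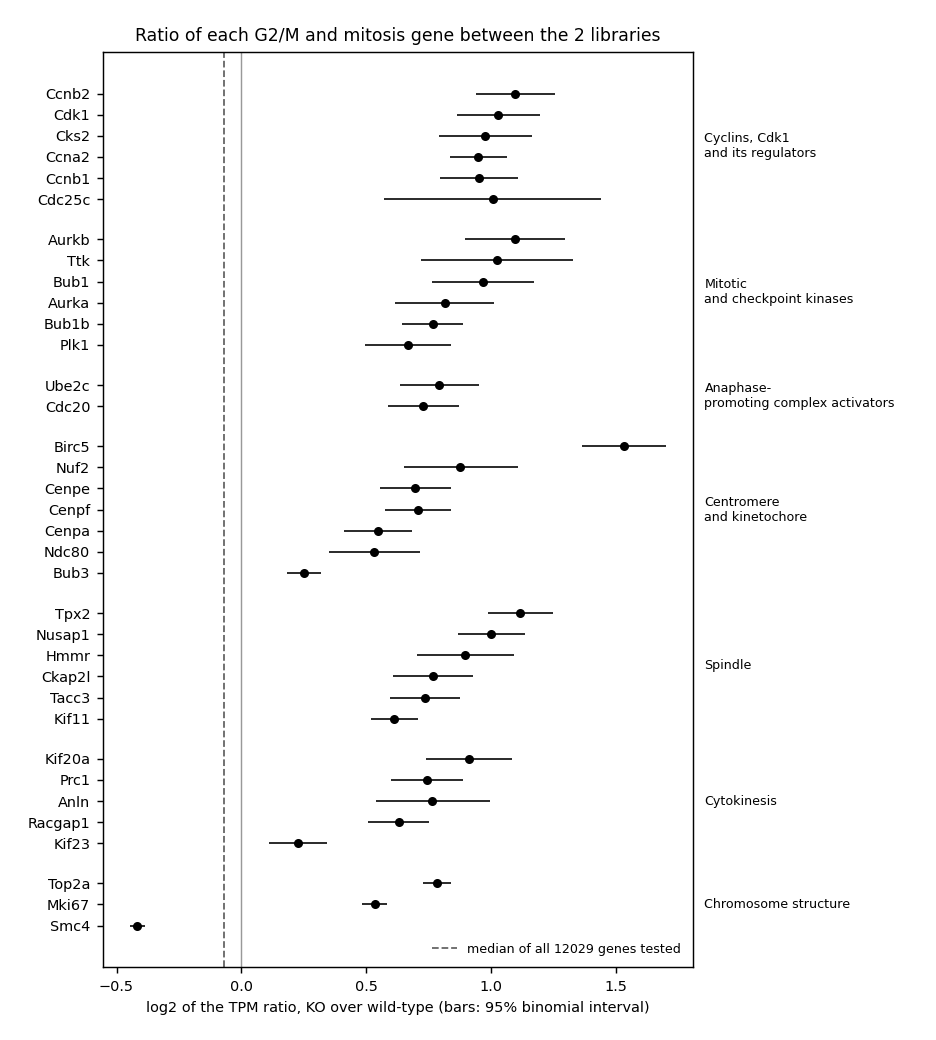
Ratio of TPM, the library labelled KO over the library labelled wild-type, on a log2 axis for each member by role group. Bars are 95% binomial intervals. The dashed line, at -0.07, is the median log2 fold change of (TPM + 1) over all 12029 tested genes, while the points are ratios of TPM with nothing added. Birc5 lies to the right with a ratio of 2.89, Bub3 (1.19) and Kif23 (1.17) lie near 0, and Smc4 (0.75) is left of it.

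Depth along the exons gave a second view of the same reads. For all 35 members the last exon could be set against the exons upstream of it, and 34 members were above 0 in each portion, Smc4 being below 0 in both. The median log2 fold change was 0.70 upstream and 0.91 in the last exon, while over 11260 genes with both portions it was -0.14 and 0.02. The median difference between the portions, 0.18, was the same in the members as over all those genes. In the last exon, 13 members reached 1 log2 unit, where 1.40% of the 11260 genes did, and upstream 5 did, where 0.595% did. No member differed by 1 or more between the portions. Among genes of at least 6 exons, depth over the 3' end of the exonic bases gave a higher fold than over the 5' end in 25 of 32 members and in 84.2% of all 6750 such genes, the compared stretches being whole exons at either end of the transcript, which differ in length.

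Exon profiles are given for 4 members, and the stretches of exons compared were chosen after their values were seen. In Birc5, exon 1 had a depth of 48.5 TPM-equivalents, which is exon depth put on the TPM scale, in the library labelled KO and 5.48 in the library labelled wild-type. That is a ratio of 8.85 (4.64 to 17.7), while exons 2 to 4 together had 2.64 (2.31 to 3.01). In Nusap1, exon 1 had 14.7 TPM-equivalents in the library labelled KO and 0.959 in the other, a ratio of 15.3 (6.30 to 47.9) resting on about 98.0 pairs of reads in the library labelled KO and 4.96 in the other, while exons 2 to 11 had 1.90 (1.73 to 2.09). In exon 1, 208 bases of Nusap1 overlap Oip5 on the opposite strand, and Oip5 stood at 6.67 TPM in the library labelled KO and 4.12 TPM in the other, so the depth of this exon is uncertain. An exon 1 that exceeded the whole gene by 1 log2 unit or more was seen in these 2 of 23 members with at least 20 pairs of reads there, and in 30 of 7312 such genes (0.410%). Leaving out exon 1 left both genes higher in the library labelled KO.

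Mki67 was level in its 5' exons and higher in its 3' exons. Over exons 1 to 11 its depth was 23.6 TPM-equivalents in the library labelled KO and 24.4 in the library labelled wild-type, a ratio of 0.967 with an upper bound of 1.09, with exon ratios between 0.713 and 1.11. Over exons 12 to 14 it was 97.0 TPM-equivalents in the library labelled KO and 64.4 in the other, a ratio of 1.51 (1.45 to 1.56), and exon 12 alone, the long repeat-bearing exon, holds 6836 bases. In the comparison of whole exons at either end of the transcript, described above, exon 12 belongs to neither stretch. There the 3' stretch of Mki67 had 197 TPM-equivalents in the library labelled KO and 99.4 in the other. Its gap between the 3' and 5' ends was 1.04 log2 units, and 96.7% of the 6750 genes had a smaller one. Smc4 had a ratio under 1 in each of its 24 exons, with 0.635 (0.598 to 0.674) over exons 1 to 6 and 0.821 (0.793 to 0.851) over exons 19 to 24. A rise of this size towards the 3' end is common in these libraries. The gap between the 3' and 5' ends of Smc4 was 0.30 log2 units, against a median of 0.27 over the 6750 genes.

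**Figure D3:**
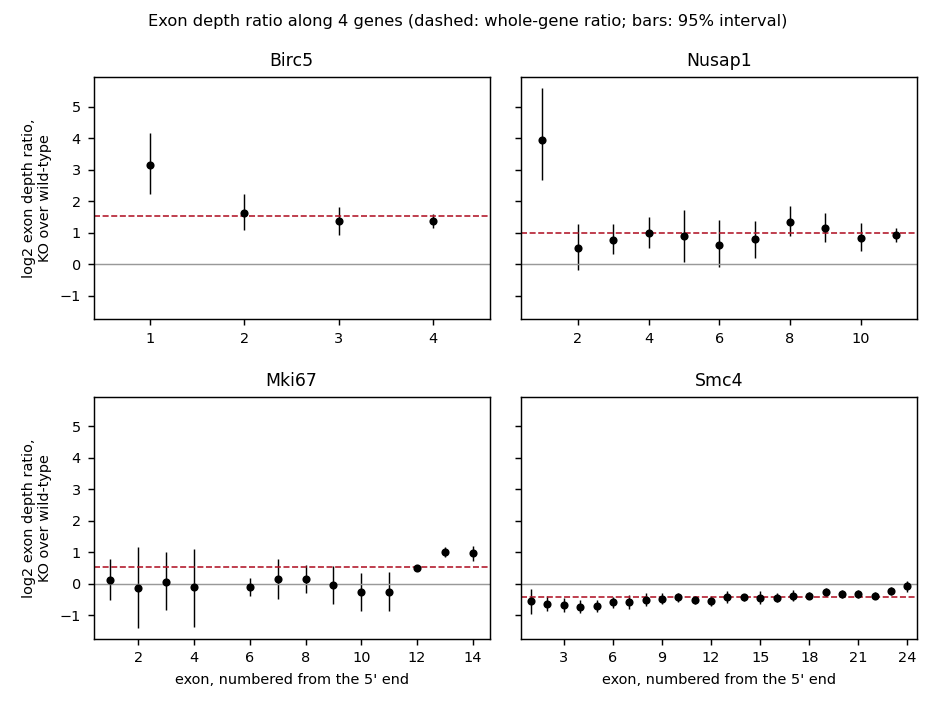
Log2 ratio of exon depth, the library labelled KO over the library labelled wild-type, by exon from the 5' end for Birc5, Nusap1, Mki67 and Smc4; bars are 95% intervals, the dashed line is the whole-gene ratio and exons with under 20 read pairs are left out. Exon 1 of Birc5 (8.85) and of Nusap1 (15.3) stand above the other exons, Mki67 is near 0 up to exon 11, and all exons of Smc4 are below 0.

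Transcript shares were read for the members that have more than 1 transcript. Of the 35 genes, 23 have 1 annotated transcript and 12 have several, and none of the 12 had a share, a transcript's percent of its gene's TPM, that differed by 25 percentage points or more between the libraries, where 6.63% of 3032 genes with several transcripts and at least 10 TPM in both libraries did. Bub1 and Ttk are among the 12 and lie under that level in the library labelled wild-type. A difference of 10 points or more was found in 5 of the 12, where 27.7% of the 3032 genes had one. In Tacc3, the transcript NM_001310541 made up 23.7% in the library labelled KO and 3.70% in the library labelled wild-type, on about 312.6 pairs of reads in the library labelled KO and 22.8 in the other. It differs from the main transcript NM_001040435 by 21 more bases at the 5' end of exon 7 (chr5:33667043-33667167). In Nusap1, NM_133851 made up 92.4% in the library labelled KO and 77.8% in the other, and differs from NM_001042652 by the 99-base exon 5 (chr2:119633720-119633818). The transcripts compared in Bub1, Tpx2 and Racgap1 differ by 3, 3 and 4 bases at the edge of 1 exon. NM_001113179 of Bub1 made up 51.8% in the library labelled KO and 41.0% in the other. NM_001141978 of Tpx2 made up 46.9% in the library labelled KO and 36.5% in the other. NM_001253809 of Racgap1 made up 6.09% in the library labelled KO and 17.4% in the other. These shares are estimates by the authors' software from reads that the transcripts mostly have in common.

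Both elements marked above were found in most of the member promoters read. A RefSeq window was matched for 29 members, not for Aurkb, Ccna2, Smc4, Cdc25c, Kif20a and Tpx2. A CHR on either strand was found in 22 of the 29 (75.9%) and in 21.7% of the 27025 genes with a window. A CCAAT box was found in 23 (79.3%) and in 41.1% of those genes, and both elements in 20 (68.97%) and in 8.61%. In no member window did a CHR overlap a CCAAT box. An E2F element (TTTGGCGC or TTTCGCGC) was found in 1 member, Cdk1, at -131, and in 0.929% of genes.

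Within the 29 members with a window, folds were not larger in the genes with a CHR of the form TTTGAA or TTCGAA. Other forms of the element were not sought. The 6 members without a window, among them Tpx2 (1.07) and Aurkb (1.05), are in neither group, and the groups are small and unequal. The median log2 fold change was 0.71 in the 22 with a CHR and 0.92 in the 7 without one (Ccnb1, Birc5, Cenpe, Nusap1, Nuf2, Tacc3 and Cks2). Birc5, Nusap1, Nuf2 and Tacc3 had neither element in the window, and their folds ran between 0.71 and 1.51. Kif23, with both elements, had 0.22. Among the genes that are no members, the median was -0.0045 in 657 tested genes with both elements and -0.07 in 8695 without the pair.

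**Figure D4:**
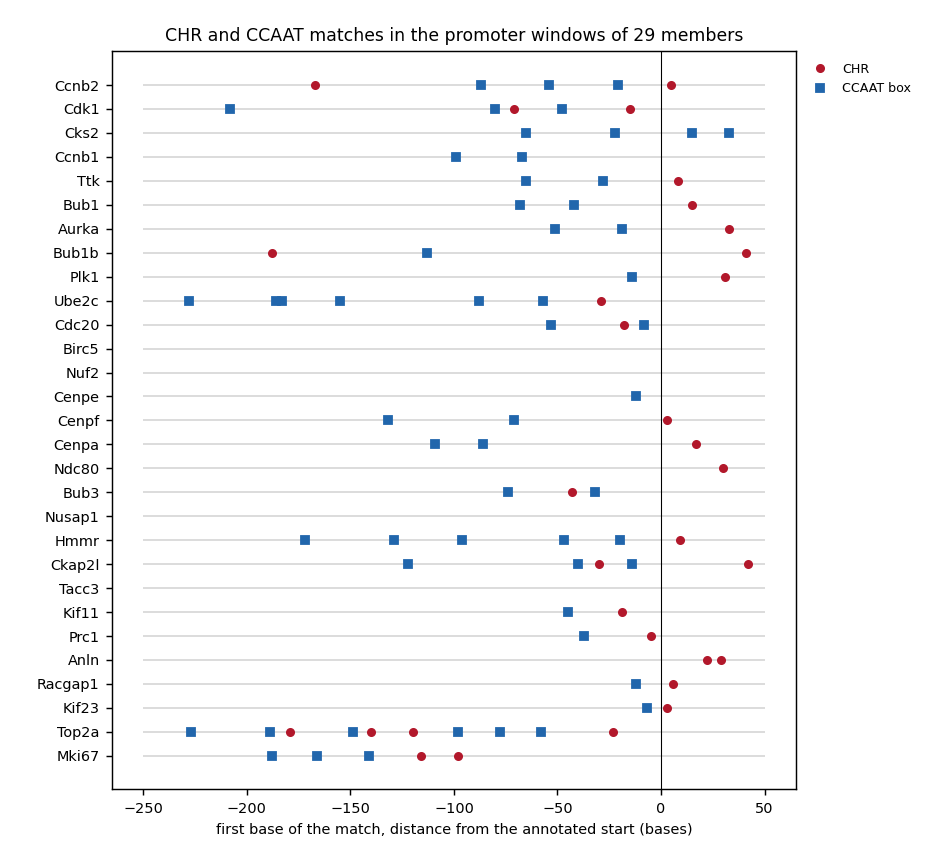
Position of the first base of each CHR (red circles) and CCAAT box (blue squares) relative to the annotated start, in bases, for the 29 members with a promoter window, ordered by role. CHR elements cluster around the start and CCAAT boxes mostly before it, and the rows of Birc5, Nuf2, Nusap1 and Tacc3 are empty.

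Further mitotic genes, in lists of the same pathway, were read beside the members. Of 26 further kinesin, spindle and cytokinesis genes, 20 were higher by 0.5 log2 units or more and none lower, with a median log2 fold change of 0.70. Cdca3, which promotes mitotic entry through destruction of Wee1, stood at 89.8 TPM in the library labelled KO and 43.1 TPM in the other. It was followed by the mitotic kinase gene Pbk, with a log2 fold change of 1.00, while Kif20b, a kinesin gene, and Ckap5, a microtubule polymerase gene, had 0.02 and -0.02. Of 25 further centromere, kinetochore and checkpoint genes, 14 were higher by 0.5 or more and none lower, with a median of 0.55. Spc24, a further chain of the complex of Nuf2 and Ndc80, stood at 25.8 TPM in the library labelled KO and 11.9 TPM in the other, above both partners in fold (1.06). The centromere gene Cenpk had 6.40 TPM in the library labelled KO and 2.45 TPM in the other, and the lowest folds were those of Cenpt (-0.18) and the checkpoint gene Mad1l1 (-0.09).

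The lists of the anaphase-promoting complex and of cohesin had medians close to 0. Over 16 core subunits and partners of the anaphase-promoting complex the median log2 fold change was 0.02, with none past 0.5 in size. The co-activator gene Cdc20 had 0.71, while Fzr1, a co-activator gene counted among the 16, had -0.13. Ube2s, the E2 that lengthens the ubiquitin chains begun by Ube2c, was the highest, with 348 TPM in the library labelled KO and 260 TPM in the other. Anapc11, the catalytic subunit, had a log2 fold change of 0.32, and Anapc2 and Cdc27 had -0.21 each. The 14 cohesin genes had a median of 0.01 but were spread from -0.43 to 0.92, with 7 above 0 and 7 below. Of them, 4 were higher by 0.5 or more. Sgo1, the protector of centromeric cohesion, had 12.7 TPM in the library labelled KO and 6.26 TPM in the other, and Espl1, the protease separase, had a log2 fold change of 0.63. The cohesin loader gene Nipbl had 82.9 TPM in the library labelled KO and 112.0 TPM in the other, and the cohesin regulator Pds5a had a log2 fold change of -0.28.

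Smc4 could be set beside its condensin partners. Over the other 7 condensin genes the median was 0.25 on the log2 scale, and 3 were higher by 0.5 or more. Smc2, the partner ATPase of Smc4, had 41.7 TPM in the library labelled KO and 34.9 TPM in the other. Ncapg and Ncaph, both subunits of condensin I, had the highest folds. Ncapg stood at 20.03 TPM in the library labelled KO and 9.71 TPM in the other, and Ncaph at 44.3 TPM in the library labelled KO and 25.3 TPM in the other. The condensin II genes Ncaph2 and Ncapd3 had log2 fold changes of 0.05 and -0.08. Folds did not split by complex, since Ncapg2 of condensin II had 0.63 and Ncapd2 of condensin I had 0.09. Smc4 had the lowest fold of the 8 condensin genes, -0.42.

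The lists of regulators had smaller medians than the members. The 12 genes that control mitotic entry had a median of 0.25. The phosphatase gene Cdkn3 had 10.2 TPM in the library labelled KO and 5.23 TPM in the other, the cyclin F gene Ccnf had a log2 fold change of 0.69, and Cdc25a and Ensa had 0.04 and 0.01. The 12 genes of the MuvB, FOXM1 and DREAM list, which holds the readers of the CHR, had a median of 0.06. Mybl2, the gene of B-MYB, had 10.7 TPM in the library labelled KO and 6.44 TPM in the other. Foxm1 had 23.1 TPM in the library labelled KO and 18.5 TPM in the other, while Lin54, the DNA-binding subunit of MuvB, and the pocket protein gene Rbl1 had log2 fold changes of -0.22 and -0.21. The 9 inhibitor and quiescence genes had a median of -0.10, near the -0.07 of all genes, and ran between 0.33 (Cdkn2c) and -0.46 (Tob1). Cdkn2d had 0.23, and Cdkn1b, the gene of the Cdk inhibitor p27, had 179.8 TPM in the library labelled KO and 218 TPM in the other. Over 46 genes of G1/S and replication the median was 0.46, and 21 were higher by 0.5 or more. Rrm2, a subunit of ribonucleotide reductase, had 112 TPM in the library labelled KO and 50.5 TPM in the other, the thymidine kinase gene Tk1 had a log2 fold change of 0.94, and Rfc3 and Dtl had -0.02 and 0.01.

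**Figure D5:**
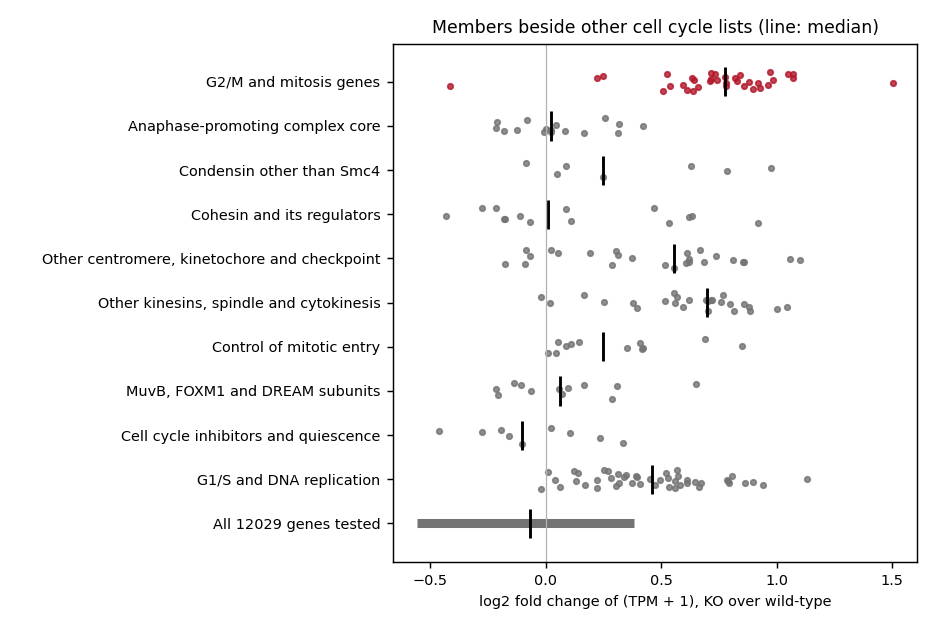
Log2 fold change of (TPM + 1), the library labelled KO over the library labelled wild-type, for the 35 members and 9 further cell cycle lists; points are genes, the black line is the median and the bar for all 12029 genes spans the 5th to the 95th percentile. Medians are 0.78 for the members, 0.70 and 0.55 for the further spindle and kinetochore lists, 0.46 for G1/S genes and 0.02 for the anaphase-promoting complex core.

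Markers of the sorted cells and of other cells were read beside these results. The 10 DP markers summed to 6374 TPM in the library labelled KO and 6101 TPM in the library labelled wild-type. Markers of the earlier double-negative and pre-DP stages, which divide, summed over 9 genes to 170 TPM in the library labelled KO and 197 TPM in the other. Most of both sums came from Tfrc (90.5 TPM in the library labelled KO and 95.3 in the other) and Notch1 (39.1 and 53.1). Of the 8 markers that reached 1 TPM, 3 were higher in the library labelled KO and 5 lower. Hes1 was under 1 TPM in both libraries, and Notch3 had 5.13 TPM in the library labelled KO and 13.3 TPM in the other. Ptcra, the pre-T cell receptor chain, had 16.0 TPM in the library labelled KO and 13.6 TPM in the other. The 8 single-positive markers, of the next stage, summed to 421 TPM in the library labelled KO and 464 TPM in the other. The 7 B cell markers summed to 66.0 TPM in the library labelled KO and 57.0 TPM in the library labelled wild-type (Ebf1 under 1 TPM in both), and the 9 myeloid markers to 96.0 TPM in the library labelled KO and 104 TPM in the other (Adgre1 under 1 TPM in both). The 6 epithelial markers summed to 18.3 TPM in the library labelled KO and 13.4 TPM in the other, with Foxn1, Krt5, Krt8 and Psmb11 under 1 TPM. Their part in the level of the mitotic genes was not tested.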

How the data were processed

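RNA of sorted thymocytes was measured in 2 libraries, 1 per genotype. Per the labels' protocols, total RNA was taken up in Trizol and a TruSeq RNA kit was used on 1 ug. Per the submitters' processing notes, HISAT2, of a version not stated there, aligned reads to mm10 (GRCm38). Per the file headers, StringTie 1.3.3b quantified annotated RefSeq transcripts without assembling others. The deposited gene and transcript tables hold TPM, FPKM and coverage (mean read depth of each base, unscaled). No source states a strand setting, so reads of overlapping genes cannot be told apart.

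From these, rows of a gene ID were summed, and folds were log2((TPM + 1) / (TPM + 1)) for 12029 genes reaching 1 TPM in either library, which understates folds of low genes. A fold of 1 log2 unit is a rule of size, not a test. Read pairs were estimated as covered bases divided by 202, because 26.8% of low genes in the library labelled KO and 26.6% in the library labelled wild-type had covered bases within 2 of a multiple of 202, against 2.48% by chance. Intervals cover counting error only, and PCR copies are not independent molecules. Exon depth was summed over all transcripts on the exons of the most abundant one, and portions of a gene were compared where counting allowed (20 read pairs for exon 1). Shared words of 50 bases were sought in GENCODE transcripts of other genes. Promoter windows came from RefSeq (GRCm38.p6), with 31 windows for 29 members; the window of the first annotated start is drawn.

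All 35 members are named, with Nsrp1 and the 2 highest and 2 lowest genes of each of 9 further lists; other genes were named after their values were seen. Of the marker lists, 1 is not reported here. Members and lists were chosen with earlier results of these data known. Alternatives were the pseudocount, the filter, FPKM, a median-ratio scaling, upstream exons, a share threshold and a shorter promoter window; leaving out exon 1 was added after seeing the data. Software was pandas 2.3.3, scipy 1.17.1, numpy 2.4.6 and matplotlib 3.10.9 under Python 3.11.15.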

Additional observations from a re-analysis of the deposited data

How the results depend on the processing

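The direction of all 35 members was the same in every alternative tried, with 34 above 0, and their median log2 fold change ran between 0.64 (pseudocount of 5) and 0.85 (scaling by the median ratio). The number of members past 1 log2 unit was 4, also with a filter of 5 TPM. It became 6 with a pseudocount of 0.1, 1 with a pseudocount of 5, 7 with FPKM and 7 with the median-ratio scaling. Over all 12029 genes that number was 79 (0.657%), and became 139 (1.16%) with a pseudocount of 0.1 and 21 (0.175%) with a pseudocount of 5. It was 46 of 9907 genes (0.464%) with a filter of 5 TPM, 51 of 10919 (0.467%) with FPKM and 95 of 12052 (0.788%) with the median-ratio scaling. A pseudocount of 5 also lowered the medians of the centromere and spindle groups to 0.48 and 0.64. FPKM and the median-ratio scaling, which shifted the median of all genes from -0.07 to 0.03 and -0.0047, gave medians of 0.61 and 0.59 for chromosome structure, 0.11 and 0.081 for cohesin, and -0.0059 and -0.034 for inhibitors. Exons upstream of the last one gave 0.13 for the other condensin genes, 0.15 for control of mitotic entry and -0.19 for inhibitors, and turned the sign of cohesin (-0.093), the MuvB list (-0.063) and the anaphase-promoting complex core (-0.031). The filter of 5 TPM also lowered the median of mitotic entry, to 0.15, and a pseudocount of 5 lowered it to 0.16 and that of the further kinetochore list to 0.35. FPKM and the median-ratio scaling raised the anaphase-promoting complex core to 0.11 and 0.091 and the MuvB list to 0.15 and 0.13. With a threshold of 10 percentage points, 5 members had a transcript share difference, against 0 at 25. A promoter window from 100 bases before the start held an E2F element in 0 members, against 1. Leaving out exon 1, an alternative chosen after seeing the data, gave a member median of 0.78 and a largest fold of 1.38. The causes of these shifts were not tested. No paired analysis was possible because there was 1 library per genotype.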
